A study of Mus musculus with 43 samples.

Results

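The genes described here make and assemble the machinery that copies DNA in S phase. They are 40 mouse genes chosen by symbol, of 38964 genes that the 5 deposited expression tables share. The choice was made with earlier results of these data known. Gins2 and Cdt1 were not analysed here because they had no matching row, so 38 members have values. Poly(A) RNA-seq gave 1 FPKM value per gene in each of 43 libraries, FPKM being fragments scaled to transcript length and to the fragments mapped in a library, a level per length. Of these, 34 libraries follow mouse embryonic fibroblasts (MEF) to induced pluripotent stem cells (iPSC) in 4 cell systems, and 9 alter Myc.

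All 4 systems are secondary MEF with a doxycycline-inducible cassette of reprogramming factors (OKSM), induced at 5% oxygen. Mbd3f/- cells carry 1 floxed and 1 deleted allele of Mbd3 and gave 11 libraries: MEF, days 1 to 8, an established iPSC line and an embryonic stem cell (ES) line. Gatad2a-/- cells are labelled as lacking Gatad2a and gave 10 libraries, the same stages without ES. Both proteins are subunits of NuRD, a chromatin remodelling and histone deacetylase complex, and the 2 systems are called depleted. Wild-type WT-1 gave 7 libraries (MEF, days 2, 4, 6 and 8, iPSC, ES), and WT-2, which is isogenic to Gatad2a-/-, gave 6 (without ES). Each stage of a system is 1 library of a cell line. Separate cultures are not stated for any libraries, and the p-values cover the spread among these samples only. A medium holding LIF and 2 kinase inhibitors (of MEK and of GSK3) took the place of serum medium on day 3.5 according to the design text, while the growth protocol places it 48 hours after induction. Irradiated human fibroblast feeders were present from day 3, so time, medium and feeders cannot be told apart.

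A eukaryotic cell licenses replication origins in G1, when the origin recognition complex, Cdc6 and Cdt1 load rings of Mcm2 to Mcm7. Mcm10, Cdc45 and the GINS complex turn the rings into active helicases at S phase, primase and the replicative polymerases copy the strands on the Pcna clamp, and Fen1 and Lig1 join the lagging strand. Ribonucleotide reductase, thymidylate synthase and thymidine kinase supply the nucleotides, and CAF-1 places histones behind the fork. Many of these genes are known targets of E2F transcription factors and are transcribed mainly from late G1 into S phase, and pluripotent mouse cells are known for a short G1. In bulk RNA, a larger share of cells in S phase and more RNA per cell cannot be told apart.

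Some libraries stood apart from the rest. The tables were normalized separately, and depth is unknown. FPKM summed to 1493838 to 10044225 in the Gatad2a-/- libraries, where 1 feature took 11.6% to 25.0% of it, and to 573565 to 917084 in the Mbd3f/- and WT libraries. In WT-2 iPSC 1 feature took 11.2% of the sum, and in WT-2 MEF and day 8 it took 5.8% and 6.2%. Mbd3 stood at 36.3 to 96.5 FPKM in Mbd3f/- and at 75.3 to 117 FPKM in WT-1. Gatad2a stood at 10.2, 9.18, 10.3, 10.5 and 14.7 FPKM in MEF and days 2, 4, 6 and 8 labelled Gatad2a-/-, against 10.5, 11.5, 11.1, 9.499 and 9.17 FPKM at the same stages of WT-2. It was slightly lower there in MEF and on days 2 and 4, higher on days 6 and 8, and lower in iPSC, at 13.4 FPKM against 38.5 FPKM in WT-2, so before iPSC its level does not tell the 2 systems apart. A level over the whole gene need not show a deletion of part of it. The MEF were checked against 7 fibroblast markers, all at 1 FPKM or more in all 4 MEF libraries, with sums of 5538 to 9146 FPKM, against 18.3 to 137 FPKM in iPSC. All 6 pluripotency markers were at 1 FPKM or more in the 4 iPSC lines. Summed endothelial markers stayed at 0.145 to 7.37 FPKM in MEF. All 5 macrophage markers measured were at 1 FPKM or more in the WT-2 MEF and in its days 2 to 8, with sums of 3645 to 7850 FPKM. Their sum was 1029 FPKM in Mbd3f/- MEF, 178 FPKM in Gatad2a-/- MEF and 8.48 FPKM in WT-1 MEF. In the same WT-2 MEF and days 0 of 6 pluripotency markers reached 1 FPKM and Pou5f1 stayed under 1 FPKM through day 8. In WT-1 day 2, Sox2 was at 0.0609 FPKM, against 0.0847 FPKM in WT-1 MEF. The part of these differences in the results below was not tested.

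In established iPSC, all 38 replication genes stood above the MEF of the same system in all 4 systems. Of all genes at 1 FPKM or more in both libraries, 39.9%, 38.7%, 46.9% and 41.2% stood below MEF in Mbd3f/-, Gatad2a-/-, WT-1 and WT-2. The members' median ratio of iPSC to MEF was 5.21 in Mbd3f/-, 4.41 in Gatad2a-/-, 6.96 in WT-1 and 12.5 in WT-2. The median level was 54.9 FPKM in iPSC against 11.4 FPKM in MEF for Mbd3f/-, and 46.4 against 12.8 FPKM for Gatad2a-/-. It was 73.8 FPKM in iPSC against 11.8 FPKM in MEF for WT-1, and 61.5 against 5.36 FPKM for WT-2. The WT-2 MEF median was the lowest of the 4, and the other MEF medians lay close together. On the scale of log2(FPKM + 1), fitted with limma over 24 libraries and 20296 genes with the system as a block, 38 of 38 members rose at an adjusted p under 0.05. Of all genes tested, 29% rose. The members' median log2 change was 2.47, against 0.14 over all genes, and their changes ranged from 0.74 to 4.24. By role, the median change was 3.20 for origin licensing, 2.86 for single-strand binding and lagging-strand maturation, 2.74 for chromatin assembly, 2.50 for helicase activation, 2.29 for polymerases and primase, 2.14 for nucleotide supply and 2.03 for the clamp and its loader. For 14 members, among them Orc1, Mcm7, Pole, Fen1, Lig1, Rpa1 and Tk1, an exon overlaps one of another gene, the library kit does not keep strand, and their values are uncertain to that extent.

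**Figure D1:**
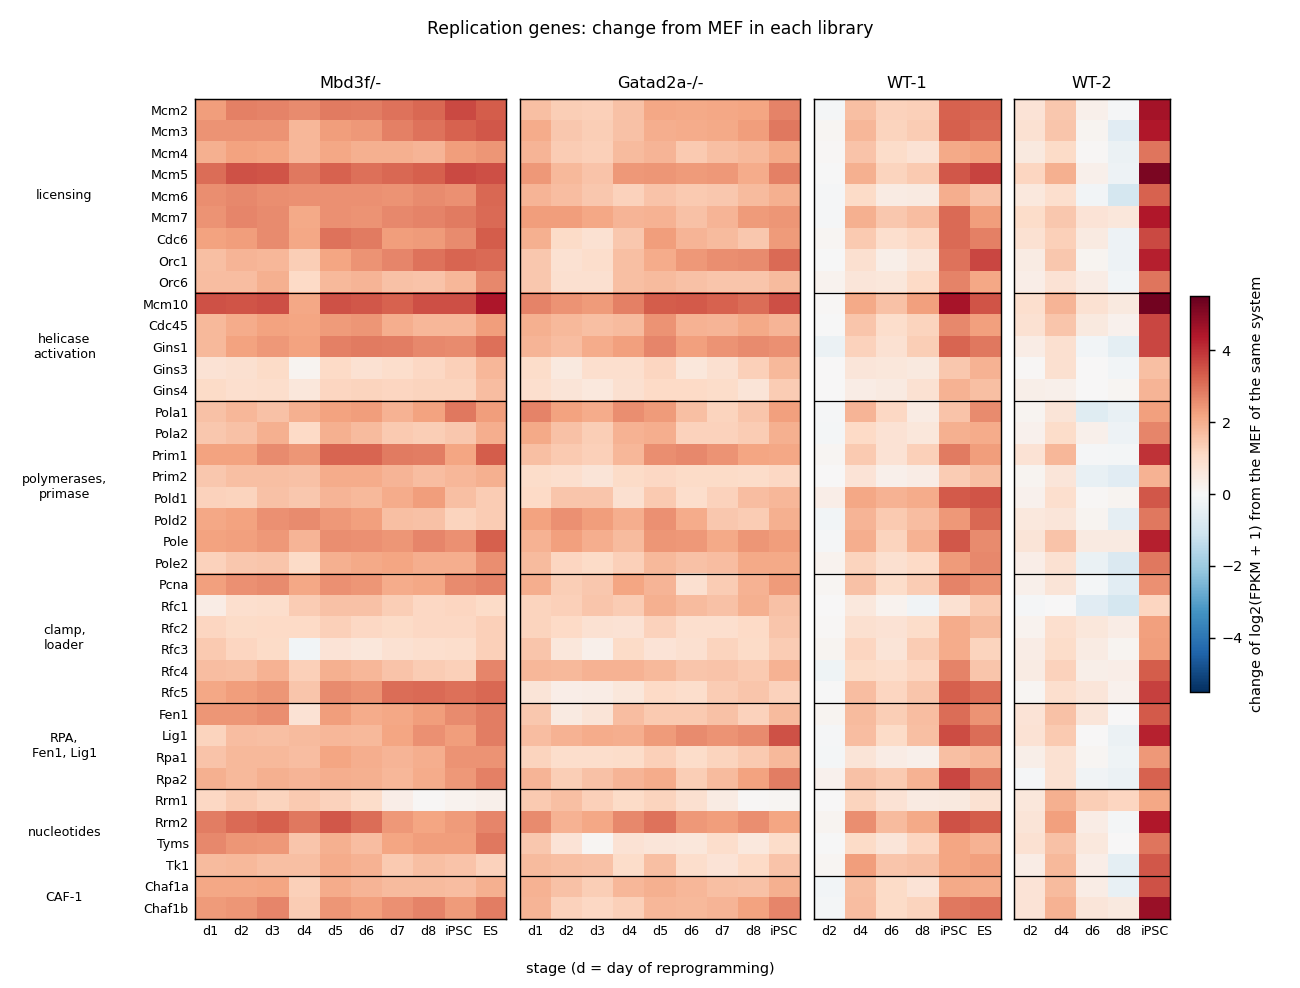
Each row is a replication gene, grouped by role, and each column a library of the Mbd3f/-, Gatad2a-/-, WT-1 or WT-2 system; colour gives the change of log2(FPKM + 1) from the MEF of the same system, red for higher. Both depleted systems are mostly red from day 1 on, with a paler Mbd3f/- day 4. WT-1 is near white on day 2 and WT-2 is near white again on days 6 and 8. The iPSC columns are mostly red in all 4 systems, with Rrm1 the palest gene in all but WT-2. Other genes are pale in single columns, such as Rfc1 in WT-1 iPSC (29.1 FPKM against 16.1 FPKM in MEF).

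Among the licensing genes (9 with values), Mcm5, a subunit of the helicase ring (chr8:75109569-75128439, GRCm38, plus strand), moved most. Its level was 143, 107, 141 and 120.0 FPKM in iPSC of Mbd3f/-, Gatad2a-/-, WT-1 and WT-2, against 10.5, 14.7, 12.2 and 2.37 FPKM in their MEF. The lowest iPSC value was several times the highest MEF value, and the log2 change was 3.76 ± 0.45 (SE, 4 systems, limma adjusted p = 1.53e-05). Orc6, a subunit of the origin recognition complex, moved least in this group, with 63.0, 79.2, 135 and 69.7 FPKM in iPSC against 17.2, 22.7, 19.7 and 8.21 FPKM in MEF, a log2 change of 2.31 ± 0.25 (adjusted p = 5.44e-06). The ring subunits Mcm3 and Mcm6 are among the 5 members with the highest mean level over the 34 course libraries. Mcm3 stood at 159, 159.7, 142 and 150.3 FPKM in iPSC against 15.7, 20.4, 13.5 and 6.07 FPKM in MEF, so the 4 iPSC lines were close to each other. Mcm6 stood at 97.4, 117, 149 and 130.3 FPKM in iPSC against 16.3, 29.5, 36.3 and 12.8 FPKM in MEF.

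Mcm10, which binds the loaded ring and helps to activate it (chr2:4989714-5012791, minus strand), had the largest change of all members. It stood at 56.6, 86.3, 112 and 60.5 FPKM in iPSC of Mbd3f/-, Gatad2a-/-, WT-1 and WT-2, against 3.91, 6.50, 3.88 and 0.534 FPKM in MEF. That is 14.5, 13.3, 28.9 and 113 times the MEF level, and a log2 change of 4.24 ± 0.36 (adjusted p = 7.2e-07). Gins3, a subunit of the GINS complex, was the weakest member of the activation group and had the lowest mean level of the 38, with 8.73 to 10.2 FPKM in iPSC and 1.96 to 3.04 FPKM in MEF. Its log2 change was 1.56 ± 0.22 (adjusted p = 5.6e-05).

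Of the 8 polymerase and primase genes, Pole, the catalytic subunit of the leading-strand polymerase, rose most and Prim2, the large primase subunit, least. Pole stood at 26.4, 25.7, 51.3 and 32.1 FPKM in iPSC against 3.77, 4.36, 3.83 and 0.718 FPKM in MEF, a log2 change of 3.13 ± 0.30 (adjusted p = 1.97e-06). Prim2 stood at 31.3, 34.4, 29.0 and 31.7 FPKM in iPSC, a narrow range, against 8.22, 15.3, 10.4 and 7.76 FPKM in MEF (log2 change 1.56 ± 0.23, adjusted p = 7.57e-05). In the clamp group, Pcna, the sliding clamp itself, reached the highest value of any member in any library, 249.9 FPKM in Gatad2a-/- iPSC. It stood at 135, 160.5 and 175 FPKM in iPSC of Mbd3f/-, WT-1 and WT-2, and its MEF levels in the order Mbd3f/-, Gatad2a-/-, WT-1 and WT-2 were 21.3, 48.4, 23.1 and 29.7 FPKM. Of the clamp loader genes, Rfc5 rose by 2.84 ± 0.32 and Rfc1, the large subunit, by 1.19 ± 0.20 on the log2 scale (adjusted p = 7.49e-06 and 0.000276).

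Lig1, the ligase that seals Okazaki fragments, stood at 97.0, 238, 168 and 139.9 FPKM in iPSC against 18.9, 20.02, 13.1 and 6.39 FPKM in MEF, a log2 change of 3.41 ± 0.37 (adjusted p = 6.98e-06). Rpa1, the large subunit of the single-strand binding protein, rose by 2.07 ± 0.20 (adjusted p = 2.35e-06). Chaf1b and Chaf1a, 2 subunits of the histone chaperone CAF-1, rose by 3.17 ± 0.35 and 2.31 ± 0.33 (adjusted p = 6.3e-06 and 6.18e-05). Nucleotide supply held both the member with the highest mean level, Rrm2, and the one with the smallest change, Rrm1. Rrm2, the regulated small subunit of ribonucleotide reductase, stood at 114, 112, 179.9 and 152 FPKM in iPSC against 21.4, 23.9, 14.8 and 6.12 FPKM in MEF, and rose by 3.12 ± 0.41 (adjusted p = 3.46e-05). Rrm1, the large subunit of the same enzyme (chr7:102441695-102469771, plus strand), stood at 53.9, 65.8, 47.6 and 47.6 FPKM in iPSC against 47.7, 61.5, 32.1 and 10.2 FPKM in MEF. The 2 sets of Rrm1 values overlap, its log2 change was 0.74 ± 0.20 (adjusted p = 0.00611), and without Mbd3f/-, Gatad2a-/- or WT-2 it no longer passed the threshold. Without WT-2 its log2 change was 0.34 (adjusted p = 0.175).

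Other genes of the pathway and of the cell cycle give the setting. Of 34 further replication genes, 30 rose and 1 fell in iPSC, with a median log2 change of 2.00. The gene that fell was Pold4, the small accessory subunit of polymerase delta, at -2.49 ± 0.39 (adjusted p = 0.000145), while Nasp, a histone chaperone, rose by 3.71 ± 0.28 and Uhrf1, which recognises newly copied DNA, by 3.58 ± 0.42. Of 14 G1/S regulators 12 rose, among them Mybl2 by 5.88 ± 0.43 and Ccne1, cyclin E1, by 2.99 ± 0.37. All 24 mitosis and spindle genes rose, with a median of 2.35. The members' median of 2.47 lay beside that of the mitosis list.

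Because the members rose together, their promoters were read for motifs of 3 kinds of factor. RefSeq windows (build GRCm38.p6) of 300 bases, from 250 before to 50 after a transcript start, were matched by symbol for 32 of the 38 members. An E2F site was any of TTTCCCGC, TTTCGCGC, TTTGCCGC and TTTGGCGC on either strand, an E-box was CACGTG and a CCAAT box was CCAAT on either strand. Overlapping matches were counted each. An E2F site was found for 12 of 32 members (37.5%), against 2.6% of the 27025 genes with a window. An E-box was found for 7 (21.9%, against 8.09%) and a CCAAT box for 21 (65.6%, against 41.1%). The iPSC log2 change had a median of 2.74 (range 1.56 to 3.76) in the 12 members with an E2F site and of 2.41 (0.74 to 4.24) in the 20 without. For the E-box the median was 2.11 with and 2.56 without, and for the CCAAT box 2.50 with and 2.56 without. The ranges overlap for each motif, and no test of these splits was made. A match is only a match of letters in this window. The 250 bases before the start are given for Mcm5 (chr8:75109259-75109508, plus strand) and Mcm6 (chr1:128359706-128359955, minus strand), since both hold several E2F letters and are named throughout, with the E2F sites in capitals. Mcm10 (chr2:5012792-5013041, minus strand), the member with the largest change, is shown because it holds none of them, with its 2 CCAAT boxes in capitals, and Rpa1 (chr11:75348384-75348633, minus strand) is shown for its E-box, the class of site that Myc is known to bind, in capitals. All read 5′ to 3′ on the gene's strand.
Mcm5: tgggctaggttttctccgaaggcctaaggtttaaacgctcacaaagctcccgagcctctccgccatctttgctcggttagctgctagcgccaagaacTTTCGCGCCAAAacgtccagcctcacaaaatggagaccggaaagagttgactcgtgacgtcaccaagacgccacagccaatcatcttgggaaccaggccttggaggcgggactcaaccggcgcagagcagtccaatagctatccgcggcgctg
Mcm6: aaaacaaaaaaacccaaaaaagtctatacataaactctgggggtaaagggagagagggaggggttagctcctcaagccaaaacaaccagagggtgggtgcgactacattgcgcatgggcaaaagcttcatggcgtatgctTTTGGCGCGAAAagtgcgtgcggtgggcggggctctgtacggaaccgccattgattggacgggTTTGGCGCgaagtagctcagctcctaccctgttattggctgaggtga
Mcm10: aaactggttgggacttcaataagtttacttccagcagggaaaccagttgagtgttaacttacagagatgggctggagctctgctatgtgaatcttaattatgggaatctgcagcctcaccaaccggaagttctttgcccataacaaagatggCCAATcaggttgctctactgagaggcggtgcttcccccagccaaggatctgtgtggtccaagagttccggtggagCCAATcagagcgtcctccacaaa
Rpa1: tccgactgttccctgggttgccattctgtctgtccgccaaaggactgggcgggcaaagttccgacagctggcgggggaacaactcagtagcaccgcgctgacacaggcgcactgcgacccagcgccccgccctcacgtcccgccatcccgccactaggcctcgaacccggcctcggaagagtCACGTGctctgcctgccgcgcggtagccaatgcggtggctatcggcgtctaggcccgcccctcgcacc

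In Mcm5 the 2 E2F matches overlap and begin 153 and 149 bases before the start. Mcm6 holds 3, of which 2 overlap, between 110 and 47 bases before the start, and both genes also hold 2 CCAAT boxes in the stretch shown. The Mcm10 CCAAT boxes begin 98 and 23 bases, and the Rpa1 E-box 68 bases, before the start.

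The course asks when this rise took place. In the depleted systems most of it was present on day 1, when the median member stood at 79.4% of its iPSC level in Mbd3f/- and at 77.7% in Gatad2a-/-. Some members stood well above day 1 in iPSC: Mcm2 was at 134 FPKM in iPSC of Mbd3f/- against 52.6 FPKM on day 1, and Orc1 at 34.9 against 11.1 FPKM. All 38 members stood above MEF on day 1 in both Mbd3f/- and Gatad2a-/-, with a median ratio of 3.98 and 3.80, and 36 of 38 were at 2 times the MEF level or more in each. Over genes at 1 FPKM or more in both libraries, 23.3% in Mbd3f/- and 16.0% in Gatad2a-/- were at 2 times or more. Of the same genes, 43.5% and 42.5% stood below MEF. In a limma fit of the 20 libraries of both systems (20189 genes), 38 of 38 members rose on day 1, against 14.1% of all genes. The counts on days 2 to 8 were 35, 37, 35, 37, 37, 37 and 37 of 38, against 14.3%, 16.9%, 16.8%, 20.5%, 18.4%, 18.3% and 21.2% of all genes. The members' median log2 change on days 1 to 8 was 1.89, 1.71, 1.75, 1.59, 2.01, 1.79, 1.79 and 1.94, so the day 1 median lay within the range of the later days.

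A few members missed the threshold on some days. Gins3, Fen1 and Rfc3 missed it on days 2 and 4 (adjusted p = 0.0615 to 0.379), Rfc3, a small clamp loader subunit, also on days 3, 5 and 6, and Rrm1 on days 7 and 8 (adjusted p = 0.075 and 0.813). The largest day 1 change was that of Mcm10, at 54.8 FPKM in Mbd3f/- and 49.4 FPKM in Gatad2a-/-, against 3.91 and 6.50 FPKM in MEF (log2 change 3.13 ± 0.35, 2 systems, adjusted p = 0.00019). The smallest was that of Rfc1, at 21.97 and 41.5 FPKM on day 1 against 16.1 and 17.2 FPKM in MEF (0.82 ± 0.22, adjusted p = 0.0191). Its highest day was day 6 in Mbd3f/-, at 51.9 FPKM, and day 8 in Gatad2a-/-, at 70.8 FPKM.

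The mitosis and spindle list rose on day 1 as well, 22 of 24, but its size differed between the systems. The median log2 change of that list on day 1 was 1.02 in Mbd3f/- and 1.8 in Gatad2a-/-, against 1.87 and 1.79 for the replication genes. In Mbd3f/- the replication median was above the mitosis median at each stage to iPSC, and in Gatad2a-/- it was below it at each stage, by little on day 1 and in iPSC. Further replication genes rose in 27 of 34 and G1/S regulators in 8 of 14 on day 1. The macrophage marker sum was 526 FPKM on day 1 against 1029 FPKM in MEF in Mbd3f/-, and 239 FPKM on day 1 against 178 FPKM in MEF in Gatad2a-/-. The factor levels on day 1 differed between the 2 systems as well. In Mbd3f/-, Pou5f1 was at 0.892 FPKM on day 1 against 0.8995 FPKM in MEF, and Klf4 at 7.35 against 8.898 FPKM. Myc was also below its MEF level there, at 9.48 FPKM, while Sox2 was higher, at 9.03 against 1.62 FPKM. In Gatad2a-/- Pou5f1 was at 7.46 FPKM on day 1 against 0.411 FPKM in MEF, and Sox2 at 90.5 against 1.63 FPKM. Klf4 and Myc were above MEF there too. The part of the marker sums and factor levels in the result was not tested.

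**Figure D2:**
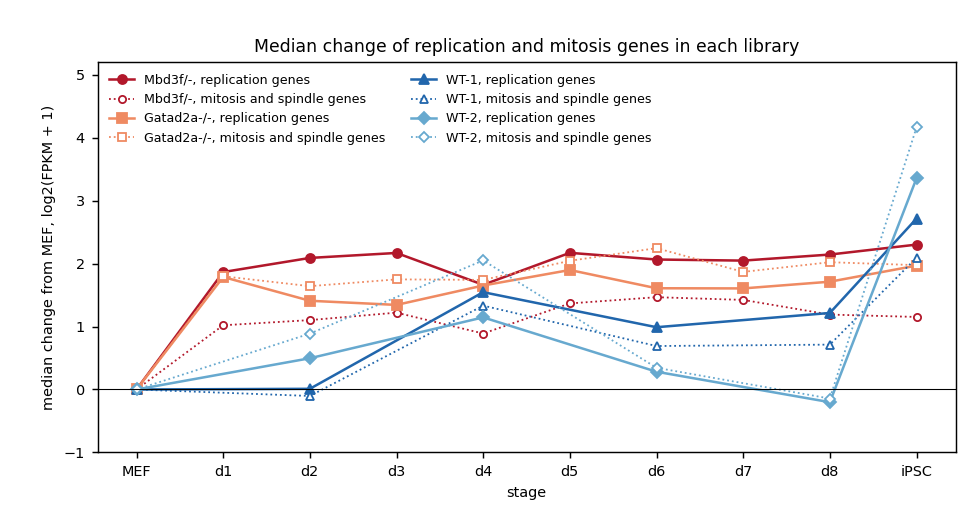
Median change of log2(FPKM + 1) from the MEF of the same system, by stage, for the 38 replication genes (solid lines, filled symbols) and 24 mitosis and spindle genes (dotted lines, open symbols), 1 library per point. The depleted systems reach 1.87 and 1.79 on day 1 and stay between 1.34 and 2.17 to day 8 for the replication genes, while WT-1 and WT-2 peak on day 4 at 1.55 and 1.15 and reach 2.72 and 3.36 only in iPSC.

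The 2 depleted systems had lower days at different times. In Mbd3f/- 30 of 38 members stood lower on day 4 than on both day 3 and day 5, against 47.7% of all genes at 1 FPKM or more on the 3 days. Gatad2a-/- had 10 of 38 members so placed on day 4, against 35.4% of all genes. Within Mbd3f/-, Mcm10 was at 20.2 FPKM on day 4 between 55.6 FPKM on day 3 and 54.7 FPKM on day 5. Fen1, the flap endonuclease that trims Okazaki fragments, stood at 15.5 FPKM between 55.2 and 46.5 FPKM, and Rfc3 at 13.6 FPKM between 33.1 and 26.5 FPKM, below its MEF level of 15.3 FPKM. Other members of Mbd3f/- did not: Pold2, a subunit of polymerase delta, was at 150.4 FPKM on day 4, its highest day, and Rrm1 at 130.2 FPKM, likewise its highest. In Gatad2a-/- 32 of 38 members stood lower on day 2 than on day 1, against 46.3% of all genes. The median ratio to MEF there was 3.80, 2.86, 2.68 and 3.33 on days 1 to 4, so the lower level spanned days 2 and 3. The low day 4 of Mbd3f/- is 1 library, and the day cannot be told apart from that library.

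Rrm1 was back near its MEF level by day 8, while its partner Rrm2 was not. In Mbd3f/- MEF and days 1 to 8, Rrm1 ran through 47.7, 105, 129, 112, 130.2, 116, 97.5, 62.5 and 49.9 FPKM, and ended at 53.9 FPKM in iPSC. In Gatad2a-/- it ran through 61.5, 170.3, 197, 155, 129, 146, 115, 84.9 and 64.0 FPKM, and ended at 65.8 FPKM in iPSC. On day 8 the fitted log2 change was 0.06 ± 0.17 (adjusted p = 0.813), after 1.54 ± 0.17 on day 2 (adjusted p = 9.58e-05). Rrm2 ran through 21.4, 155, 195, 215, 167, 235, 189, 118 and 98.5 FPKM in Mbd3f/-, and day 8 was 4.60 times MEF and 0.419 times its highest day. In Gatad2a-/- it ran through 23.9, 152, 91.6, 108, 155, 196, 129, 120.0 and 144 FPKM, and day 8 was 6.02 times MEF and 0.733 times its highest day. Pold2 also declined late, to 74.4 FPKM on day 8 in Mbd3f/- and 28.7 FPKM in Gatad2a-/-, which is 0.494 and 0.448 times its highest day. Orc1, the large origin subunit, went the other way, with 29.7 FPKM on day 8 in Mbd3f/- and 16.3 FPKM in Gatad2a-/-, in each its highest day, against 11.1 and 7.12 FPKM on day 1.

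**Figure D3:**
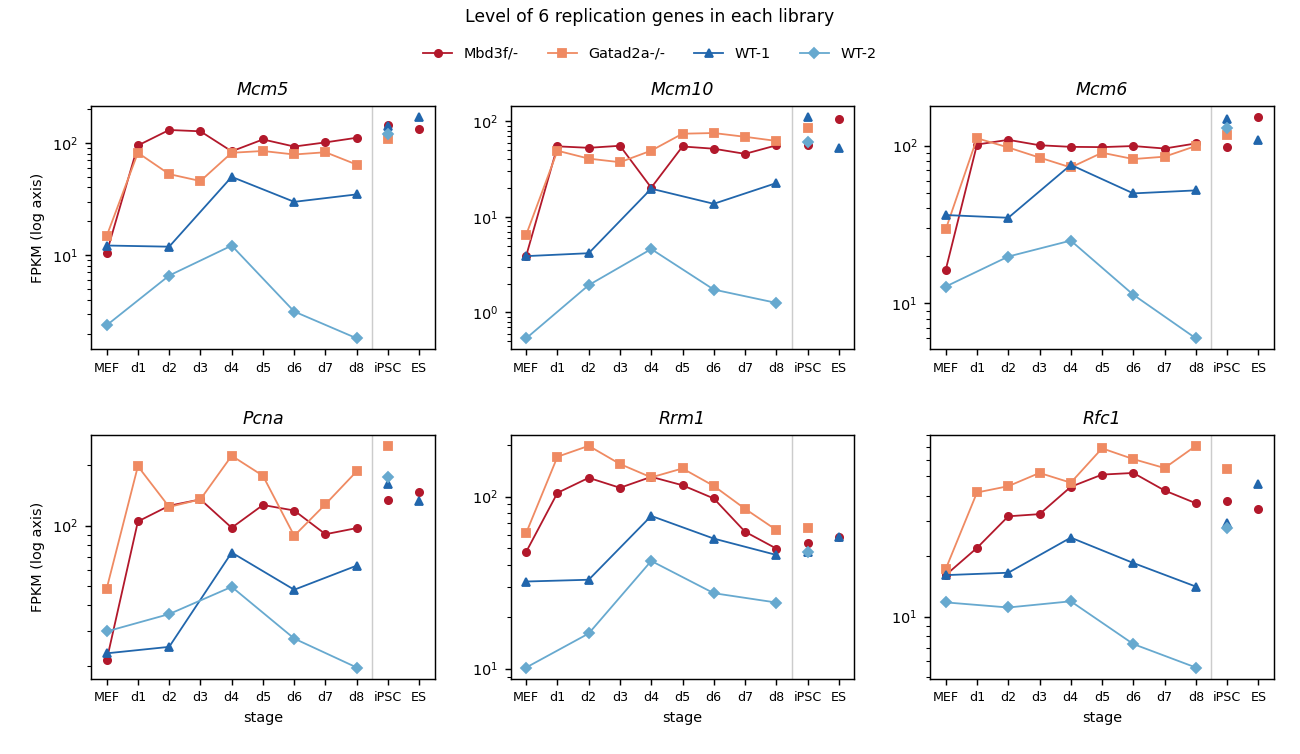
FPKM on a log axis by stage for Mcm5, Mcm10, Mcm6, Pcna, Rrm1 and Rfc1 in Mbd3f/-, Gatad2a-/-, WT-1 and WT-2, 1 library per point, with days joined by lines and the established iPSC and ES lines right of the grey bar. On days 2, 6 and 8 both depleted systems lie above both WT systems for all 6 genes, and on day 4 Mcm6 in Gatad2a-/- (72.8 FPKM) lies below WT-1 (75.6 FPKM). Rrm1 declines in both depleted systems after its peak, and all systems end between 47.6 and 65.8 FPKM in iPSC.

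On day 8 the median member stood at 96.7% of its iPSC level in Mbd3f/- and at 73.7% in Gatad2a-/-, and all 38 members were above 50% in both. The share of all genes above 50% was not counted, so this count is not shown to be particular to the members. The fit over the daily course called 0 of 38 members between iPSC and day 8 (0.154% of all genes rose), and so did the fit with the WT systems (0.241% rose), with a median log2 difference of 0.21 and 0 members at an unadjusted p under 0.05 in either, against 7.03% and 6.93% of all genes. A missed threshold with 2 systems does not show that the levels were equal: Pola1 stood at 25.2 and 75.4 FPKM in iPSC of Mbd3f/- and Gatad2a-/- against 15.2 and 44.7 FPKM on day 8, a log2 difference of 0.72 ± 0.41.

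The WT systems took another course. In WT-1, 18 of 38 members were below MEF on day 2, against 55.1% of all genes, and the median ratio to MEF was 1.01. There 0 members were at 2 times MEF, against 1.36% of all genes. On day 4, 31 of 38 were at 2 times MEF or more, against 11.7% of all genes, and the median ratio was 3.20. In WT-2 the median ratio was 1.52 on day 2 and 2.58 on day 4. Day 4 was the highest day for 29 of 38 members in WT-1 and 37 of 38 in WT-2. The exception in WT-2 was Gins4, with 20.6 FPKM on day 2 and 19.9 FPKM on day 4. The share of all genes highest on day 4 was not counted. Day 8 stood below day 4 for 29 members in WT-1 and 38 in WT-2. Among all genes at 1 FPKM or more in both libraries, 55.6% and 59.2% did so.

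After day 4 most members stood lower in both WT systems. On day 6, 37 of 38 members in WT-1 and 38 of 38 in WT-2 stood below day 4, against 56.0% and 52.7% of all genes at 1 FPKM or more in both libraries. On day 8 WT-1 still had a median of 2.55 times MEF, while WT-2 had one of 0.851, with 24 of 38 members below MEF, against 57.4% of all genes. Mcm5 in WT-2 ran through 2.37, 6.57, 12.1, 3.14 and 1.81 FPKM from MEF to day 8, and the established iPSC line stood at 120.0 FPKM. In WT-1 it ran through 12.2, 11.9, 49.7, 29.8 and 34.7 FPKM, with 141 FPKM in iPSC. Mcm6 in WT-2 was at 6.02 FPKM on day 8 against 12.8 FPKM in MEF, and Orc1 had 0.186 FPKM on day 8 against 0.439 FPKM in MEF.

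Markers of growth varied over the same days. Mki67, a marker of cycling cells, stood at 1.57, 4.44, 13.6, 2.11 and 1.04 FPKM in WT-2 from MEF to day 8, and the mitosis list had its highest WT-2 median on day 4 too, at 2.05 on the log2 scale. In WT-1 Mki67 stood at 10.6, 9.07, 28.7, 13.5 and 12.04 FPKM. Myc stood at 17.2, 18.9, 129, 129.8 and 116 FPKM in WT-1 and at 19.6, 24.9, 6.15, 6.47 and 6.17 FPKM in WT-2, so on day 4, the highest day for most members in both, Myc was high in WT-1 and low in WT-2. In Mbd3f/- Myc was below its MEF level on days 2 to 6, at 3.59, 0.495, 0.0919, 0.174 and 0.311 FPKM. The members' median ratio to MEF was 3.32 to 4.95 on those days. In Gatad2a-/- Myc was above its MEF level on days 1 to 5, at 55.37 to 32.9 FPKM, and below it on day 6, at 15.7 FPKM. The part of these differences in the members' course was not tested.

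With WT-1 and WT-2 as 2 replicates, 0 of 38 members passed the threshold against MEF on days 2, 4, 6 and 8. Of all genes, 0%, 0.00493%, 0.0887% and 0.439% rose on these days, so the test called almost nothing among all genes. At an unadjusted p under 0.05, 0, 34, 4 and 7 members differed from MEF, against 0.576%, 7.51%, 8.83% and 15.1% of all genes. The members' median log2 changes were 0.27, 1.30, 0.63 and 0.59. In iPSC against day 8, 37 of 38 members rose in WT, against 19.6% of all genes, with a median log2 difference of 2.39. Mcm5 stood at 141 and 120.0 FPKM in iPSC of WT-1 and WT-2 against 34.7 and 1.81 FPKM on day 8 (3.71 ± 0.64, adjusted p = 0.000668). The member that did not pass was Rrm1, at 47.6 and 47.6 FPKM in iPSC against 45.8 and 24.2 FPKM on day 8 (0.50 ± 0.28, adjusted p = 0.187). Without WT-2 the members' count was 13, and the share of all genes called in that refit is not given here.

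The comparison of depleted and WT cells asks whether the change from MEF differed, within each table. In the joint fit 31, 29, 34 and 34 of 38 members rose in the depleted systems on days 2, 4, 6 and 8, against 9.97%, 13.1%, 16.5% and 19% of all genes. Leaving out Mbd3f/- took these counts to 0, 0, 2 and 3, and leaving out Gatad2a-/- to 4, 1, 14 and 12. The shares of all genes called without either system are not given here. In the joint fit, the difference of the changes, depleted minus WT, was past the threshold for 0, 0, 5 and 6 members on days 2, 4, 6 and 8. Of all genes, 0.557%, 1.12%, 4.46% and 8.4% were higher by this test. At an unadjusted p under 0.05 the counts were 23, 1, 17 and 26, against 19.2%, 21%, 26.7% and 30.2% of all genes. The members' median differences were 1.47, 0.43, 1.23 and 1.45 on the log2 scale. The median difference was thus smallest on day 4, the day of the WT maximum.

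Orc1, Gins1, Prim2 and Rfc1 passed on both day 6 and day 8, Prim1 on day 6, and Mcm6 and Rpa1 on day 8. For Rfc1 on day 8, the levels were 36.6 and 70.8 FPKM in Mbd3f/- and Gatad2a-/-, against 14.1 and 5.58 FPKM in WT-1 and WT-2, from MEF levels of 16.1, 17.2, 16.1 and 11.8 FPKM. Both depleted systems were above their MEF and both WT systems below theirs, a difference of 2.12 ± 0.41 (adjusted p = 0.00406). For Orc1 on day 8 they were 29.7 and 16.3 FPKM in the depleted systems against 3.61 and 0.186 FPKM in WT-1 and WT-2, a difference of 2.59 ± 0.60 (adjusted p = 0.0109). For Prim1, the catalytic primase subunit, on day 6 they were 82.7 and 80.9 FPKM in the depleted systems against 19.3 and 3.04 FPKM in WT (2.56 ± 0.66, adjusted p = 0.0231). Leaving out Gatad2a-/- left 0 calls on both days. Leaving out Mbd3f/- left 0 on day 6 and 1 on day 8, and leaving out WT-2 left 1 and 0. Leaving out WT-1 gave 12 and 24, and a fit without the system block called 0 on both days. The shares of all genes called in these refits are not given here. In the joint fit, Rrm1 was the member with the lowest difference on day 8, at -0.78 ± 0.39 (adjusted p = 0.201). It stood at 49.9 and 64.0 FPKM in the depleted systems against 45.8 and 24.2 FPKM in WT-1 and WT-2.

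**Figure D4:**
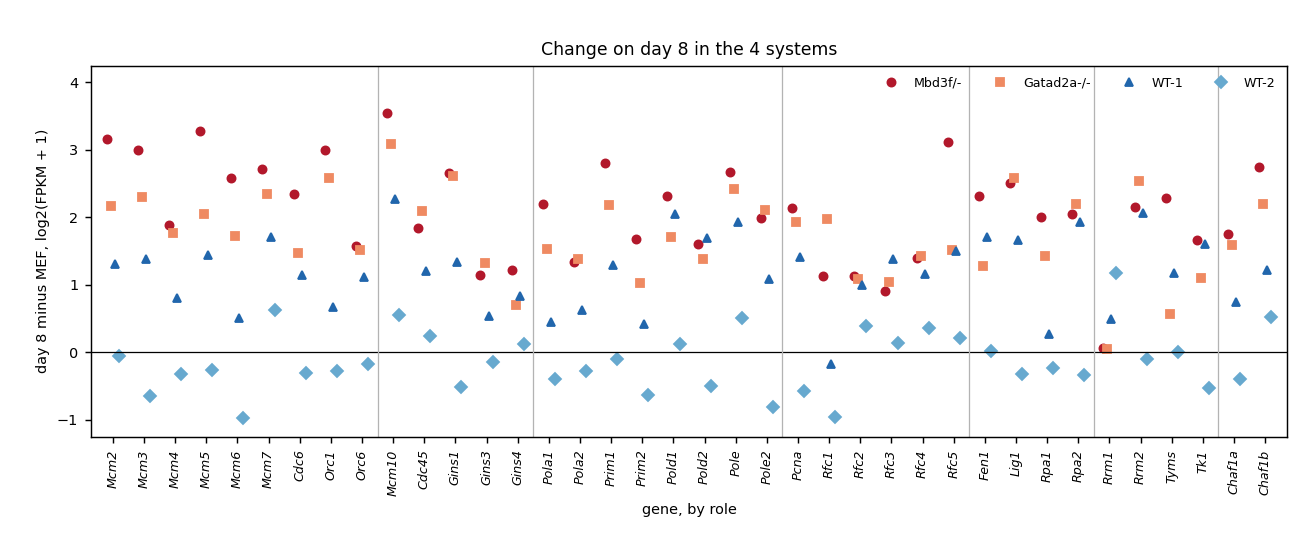
Day 8 minus MEF on the scale of log2(FPKM + 1) for each replication gene, grouped by role, with 1 point per system. The 2 depleted systems lie above WT-2 for all members but Rrm1, and WT-1 lies above WT-2 for all members but Rrm1. In WT-2, 24 of 38 members lie below 0, against 57.4% of all genes at 1 FPKM or more in both libraries.

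ES lines exist for 2 systems. In Mbd3f/- 8 of 38 members stood below iPSC in ES, against 54.3% of all genes, with a median of 65.5 FPKM in ES against 54.9 FPKM in iPSC, and in WT-1 23 of 38 stood below, against 41.5% of all genes, with 61.9 FPKM in ES against 73.8 FPKM in iPSC. Mcm10 stood at 105 and 52.8 FPKM in ES of Mbd3f/- and WT-1, against 56.6 and 112 FPKM in iPSC. The fit of ES minus iPSC over 26 libraries, which also uses the iPSC of the systems without ES, called 0 of 38 members, and of all genes 0% rose and 0% fell. At an unadjusted p under 0.05 the members' count was 0 too, against 1.87% of all genes.

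The Myc table asks what the members do when Myc is added, depleted or inhibited, in cells of the Mbd3f/- background. Day 4 libraries are labelled as OSK plus Myc, Myc alone and OSK alone, OSK being the other reprogramming factors. A further set comes from Mbd3f/- secondary MEF with an inducible OSK cassette, transfected with siRNA to Myc genes (labelled siMyc, days 3 and 7) or a control siRNA (si-Scramble, day 7, and 2 MEF libraries), or given a Myc inhibitor (day 3). Every group is 1 library, except for si-Scramble MEF with 2, so there is no test and each difference compares libraries. The Myc level goes against the day 4 labels: it stood at 3.16 FPKM in the library labelled OSK plus Myc and 0.510 FPKM in that labelled Myc alone, against 24.8 FPKM in that labelled OSK alone. Other factors follow the labels in part, with Sox2 at 312 FPKM in OSK plus Myc, 0.821 FPKM in Myc alone and 39.6 FPKM in OSK alone, and Pou5f1 at 2.69, 0 and 36.1 FPKM. In the library labelled siMyc day 3, Myc stood at 29.2 FPKM against 30.5 and 26.5 FPKM in si-Scramble MEF. Mycn stood at 1.87 FPKM against 5.11 and 4.43 FPKM there, and Mycl at 3.93 against 1.65 and 1.29 FPKM. In the library labelled siMyc day 7, Myc was lower, as labelled, at 10.99 FPKM against 16.2 FPKM in si-Scramble day 7. Mycn was lower too, at 0.928 against 1.47 FPKM, while Mycl was higher, against the label, at 3.31 against 1.03 FPKM. No source used here says whether the value includes the introduced copy. Libraries are therefore named by their labels, and a direction holds for the labels as deposited.

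A member was counted as higher or lower where FPKM + 1 differed by 1.5-fold or more. The pair of si-Scramble MEF libraries gives the scale: 0 of 38 members passed in either direction, against 2.33% and 2.93% of 16430 genes, and the widest member difference was 0.53 on the log2 scale (Rpa2). Neither a day 3 si-Scramble library nor a vehicle library is among the samples here, so both day 3 libraries are set against si-Scramble MEF, and stage, transfection and agent cannot be told apart in them. Of the pairs in the Myc table, that of the library labelled Myc inhibitor day 3 and si-Scramble MEF had the lowest median. There 28 of 38 members were lower than in si-Scramble MEF and 0 higher, against 22.8% and 19.6% of all genes. All 38 members lay below 0, as did 8750 of the 16430 genes. The members' median level was 6.62 FPKM in the inhibitor library, against 15.1 and 15.4 FPKM in si-Scramble MEF. Their median log2 difference was -1.04, against -0.06 over all genes. Tyms, the enzyme that makes thymidylate, stood at 5.58 FPKM against 39.1 and 39.6 FPKM (-2.62), Mcm6 at 4.34 against 21.8 and 21.8 FPKM (-2.09), and Gins1 at 1.36 against 8.95 and 6.55 FPKM (-1.88). Mcm10 moved least, at 4.31 FPKM against 4.67 and 5.00 FPKM. The mitosis list had 19 of 24 lower in the same pair.

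In the library labelled siMyc day 3, 3 of 38 members were lower than in si-Scramble MEF and 1 was higher, against 21% and 9.87% of all genes, with a median difference of -0.10 that median scaling and quantile normalization turned to 0.04 and 0.07. The members past the fold were Rfc1 at 7.17 FPKM against 15.8 and 17.3 FPKM (-1.10), Pold2 at 34.02 against 58.6 and 50.5 FPKM (-0.66) and Rpa2 at 13.2 against 25.2 and 17.2 FPKM (-0.62), which lay lower, and Rrm2 at 63.0 against 34.2 and 33.04 FPKM (0.89), which lay higher. The 2 si-Scramble MEF libraries themselves differed most in Rpa2.

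On day 7, 14 of 38 members were lower in the library labelled siMyc than in si-Scramble day 7 and 0 were higher, against 10.3% and 8.86% of all genes, with a median difference of -0.40. Pold2 stood at 24.0 FPKM in siMyc day 7 against 58.1 FPKM in si-Scramble day 7 (-1.24), Tk1, thymidine kinase, at 5.07 against 13.3 FPKM (-1.24) and Rfc4 at 2.54 against 7.01 FPKM (-1.18). At a fold of 2, 5 members were lower, and the share of all genes at that fold is not given here. The si-Scramble libraries differed between stages too: in si-Scramble day 7, 18 of 38 members were lower than in si-Scramble MEF and 0 higher, against 12.9% and 15.5% of all genes, with a median difference of -0.54. Chaf1b stood at 4.39 FPKM on day 7 against 12.1 and 11.2 FPKM in MEF (-1.23), Prim1 at 3.85 against 9.99 and 10.2 FPKM (-1.20) and Mcm6 at 9.10 against 21.8 and 21.8 FPKM (-1.18). Of the 38 members, 37 were below their MEF level, against 7512 of all 16430 genes, and the exception was Pold2, at 0.09. All 24 mitosis and spindle genes were lower past the fold in the same pair, with a median of -2.23. Mki67 stood at 1.54 FPKM on day 7 against 12.9 and 13.2 FPKM in MEF. The fibroblast markers summed to 4804 FPKM in si-Scramble day 7 and 2848 FPKM in siMyc day 7, against 21.1 FPKM in Mbd3f/- day 7 of the course. The pluripotency markers summed to 4.46 and 4.34 FPKM, against 2640 FPKM in Mbd3f/- day 7. Day 7 of this table thus does not match day 7 of the course in these markers, and their part in the pairs was not tested.

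Among the day 4 libraries, that labelled OSK plus Myc was the lowest. Its median member level was 24.1 FPKM, against 38.1 FPKM in Myc alone and 42.4 FPKM in OSK alone. Against OSK alone, 24 of 38 members were lower and 1 higher in OSK plus Myc, against 26.7% and 20.8% of all genes, with a median difference of -0.70. Tk1 stood at 30.7 FPKM in OSK plus Myc against 115 FPKM in OSK alone (-1.87), Rrm1 at 63.0 against 213 FPKM (-1.74) and Tyms at 39.1 against 133 FPKM (-1.74). Those 3 are enzymes of nucleotide supply, whose other member Rrm2 stood at 111 against 156 FPKM and did not pass the fold. The member that was higher was Pold2, at 139 FPKM in OSK plus Myc against 66.4 FPKM in OSK alone (1.05).

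Against Myc alone, 16 of 38 members were lower in OSK plus Myc and 0 higher, against 11.1% and 16.5% of all genes. The members' median difference was -0.52, and all 38 lay below 0, against 8287 of all 16430 genes. Tk1 stood at 30.7 FPKM in OSK plus Myc against 66.9 FPKM in Myc alone (-1.10), Gins1 at 12.98 against 27.0 FPKM (-1.0) and Pold1 at 16.9 against 31.7 FPKM (-0.87). At a fold of 2 the members' count was 1, and the share of all genes at that fold is not given here. Between OSK alone and Myc alone the members split, with 7 higher and 2 lower in OSK alone, against 30.5% and 22.4% of all genes. Rrm1 stood at 213 FPKM in OSK alone against 77.8 FPKM in Myc alone (1.44), Tyms at 133 against 69.2 FPKM (0.93) and Rfc4 at 61.1 against 33.5 FPKM (0.85), while Pold2 stood at 66.4 against 200.2 FPKM (-1.58) and Pola2 at 13.7 against 29.0 FPKM (-1.03). Mki67 stood at 17.0 FPKM in OSK plus Myc, 24.1 FPKM in Myc alone and 52.0 FPKM in OSK alone, in the same order as the members' medians. These 3 comparisons share libraries, so their counts are not separate evidence.

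The 7 members with an E-box in their promoter window had these values in 2 of the pairs, with no test made. Their median difference was -1.16 (range -2.62 to -0.18) for the inhibitor library against si-Scramble MEF, against -0.98 (-2.09 to -0.13) for the 25 matched members without one. For siMyc day 7 against si-Scramble day 7 it was -0.16 with and -0.57 without an E-box.

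**Figure D5:**
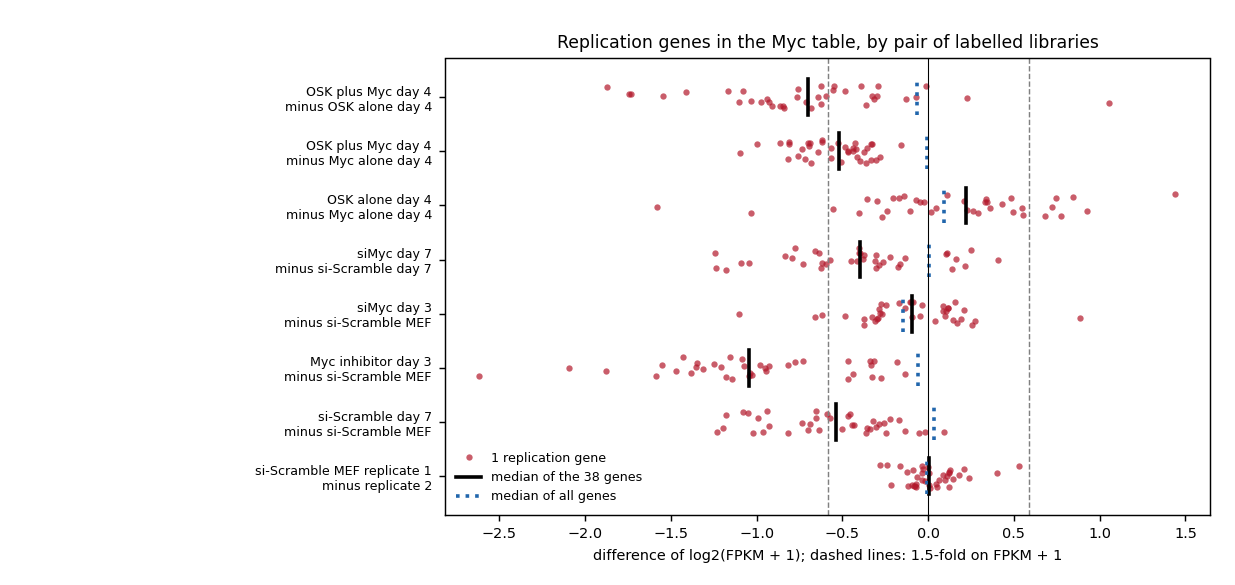
Each red point is a replication gene and each row a pair of labelled libraries; the x axis gives the difference of log2(FPKM + 1), dashed lines mark 1.5-fold on FPKM + 1, the black bar is the median of the 38 genes and the dotted blue bar that of all genes. The Myc inhibitor row lies farthest to the left (median -1.04), the siMyc day 3 row straddles 0 (median -0.10) and the 2 si-Scramble MEF libraries differ by -0.28 to 0.53.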

How the data were processed

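Poly(A) RNA of 43 mouse libraries was sequenced with a TruSeq v2 kit, per the labels' protocols, a kind of kit that does not mark strand. Per the submitters' processing notes, the tools included Cufflinks 2.2.1, TopHat2 2.0.10 and CASAVA 1.8.2, with the mm10 build. No source used here gives the annotation release or the strand setting. The authors deposited FPKM values in 5 tables, normalized separately and holding no counts, so depth and counting error are unknown; all 37 mitochondrial genes stood at 0.

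Groups followed the labels. Each fit was run with limma 3.58.1 (R 4.3.3) on log2(FPKM + 1) over all genes that reached 1 FPKM in 2 or more libraries, with the system as a block, trended and robust eBayes variance and Benjamini-Hochberg adjustment (threshold 0.05). A fold change on this scale understates that of genes at low levels. The fits were tested on simulated data. The shared fit had 24 libraries and 10 residual degrees of freedom, the daily fit 20 and 9, and the fit with ES 26 and 11. Values with an SE are log2 changes ± SE. In the Myc table, 1 library per group allowed no test. Alternatives were a pseudocount of 0.1, no filter, quantile normalization, median scaling, no block, eBayes without trend, each system left out and a fold of 2. Leaving out the Mbd3f/- day 4 or the Gatad2a-/- day 6 library was added after seeing the data. Described in full were, in each role group, the members with the largest and smallest iPSC change, the 5 members with the highest mean level, and up to 3 members each way in each Myc pair; others named were chosen after their values were seen. The members and the other gene lists were chosen with earlier results of these data known. Gene coordinates come from GENCODE (GRCm38) and promoters from RefSeq.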

Additional observations from a re-analysis of the deposited data

Results flagged for a closer look

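For 7 replication genes the change from MEF differed between the depleted and the WT systems by a test of the difference itself (limma, adjusted over all genes tested, 2 systems a class). On day 6 the log2 difference, depleted minus WT, was 2.19 ± 0.60 for Orc1 (adjusted p = 0.03), 2.19 ± 0.65 for Gins1 (adjusted p = 0.0451) and 2.56 ± 0.66 for Prim1 (adjusted p = 0.0231). It was 1.63 ± 0.46 for Prim2 (adjusted p = 0.0338) and 1.91 ± 0.41 for Rfc1 (adjusted p = 0.009). On day 8 it was 2.59 ± 0.60 for Orc1 (adjusted p = 0.0109), 2.39 ± 0.68 for Mcm6 (adjusted p = 0.0298) and 2.22 ± 0.65 for Gins1 (adjusted p = 0.035). It was 1.46 ± 0.46 for Prim2 (adjusted p = 0.0452), 2.12 ± 0.41 for Rfc1 (adjusted p = 0.00406) and 1.71 ± 0.40 for Rpa1 (adjusted p = 0.0119). These genes include an origin subunit, a GINS subunit, both primase subunits, a ring subunit, the large clamp loader subunit and the large RPA subunit. Of all genes tested, 4.46% on day 6 and 8.4% on day 8 were higher by this test. All 11 calls are lost without the system block or without Gatad2a-/-. The WT-2 libraries stand apart: Pou5f1 was at 0 to 0.832 FPKM and Sox2 at 0.162 to 0.429 FPKM from MEF to day 8, with 0 of 6 pluripotency markers at 1 FPKM, while WT-1 day 4 had Pou5f1 at 79.1 FPKM. The same WT-2 libraries carry the high macrophage marker sums. The part of these values in the differences was not tested.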

How the results depend on the processing

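The fits pair the stages of a system through the system block, and the labels' replicate numbers add no other pairing. All values here are counts of the 38 members unless said otherwise. The shares of all genes under the same settings are not given here, so whether all genes moved likewise is not shown. Without the system block, the daily course called 21 members on each of days 1, 2, 3 and 4 and 22 on day 6. The depleted systems in the shared fit then had 0, 1, 9 and 10 on days 2, 4, 6 and 8, and depleted minus WT had 0 on days 6 and 8. Leaving out each system in turn gave 0 to 33, 0 to 33, 2 to 34 and 3 to 36 for depleted on days 2, 4, 6 and 8. It gave 0 to 1 for WT day 4, 0 to 2 for WT day 8, 13 to 38 for WT iPSC minus day 8 (13 without WT-2), and 0 to 12 and 0 to 24 for depleted minus WT on days 6 and 8. For that difference, day 2 had 1 under quantile normalization. Day 6 had 3 with the pseudocount of 0.1, 2 with no filter and 8 under quantile normalization, and day 8 had 3 with no filter. The iPSC minus MEF count stayed at 37 or 38 under every alternative run. A fold of 2 left 9 lower for OSK plus Myc minus OSK alone, 1 lower for OSK plus Myc minus Myc alone and 1 higher for OSK alone minus Myc alone. It left 5 lower for siMyc day 7, 0 higher and 1 lower for siMyc day 3, and 6 lower for si-Scramble day 7 minus MEF. For siMyc day 3, 1 was lower under median scaling and 1 with the second si-Scramble MEF library alone. Of 722 recomputed values of named genes, 642 stayed on their side of the threshold, 77 lost the call, 1 gained it and 2 reversed: Rrm1 on day 8 of the daily course, at -0.18 under quantile normalization (adjusted p = 0.54) and -0.19 under median scaling (adjusted p = 0.474). The causes were not tested, and the daily course could not be fitted with a system left out, since no residual degrees of freedom remain.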
